A study of Drosophila melanogaster with 2 samples.

Results

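The 9 genes described here encode the enzymes that make, activate and break down the moulting hormone ecdysone in Drosophila melanogaster: nvd, sro, spo, spok, phm, dib, sad, shd and Cyp18a1. They were picked by name, as 9 of the 13945 protein-coding genes annotated on chromosomes 2L, 2R, 3L, 3R, 4 and X, and every peak with its summit in the gene body or within 5 kb of it was taken. All 9 were found in the annotation, where phm carries the symbol phtm. The study mapped the chromatin binding of CG6276 by ChIP-seq, in which DNA bound by a protein is precipitated and sequenced. There was a single group, whole prepupae of both sexes from a transgenic line with CG6276 joined at its C-terminus to eGFP, precipitated through the GFP tag. It had 2 biological replicates, numbered 2 and 4. The labels give an age of 72 days, which is far older than a prepupa. No input or untagged library was analysed here, and whole animals do not show in which organ a site was bound.

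Ecdysone is made from dietary sterol, in larvae in the prothoracic gland, by a chain of oxidising enzymes most of which are cytochrome P450s. Peripheral tissues such as the fat body convert it to the active hormone, and other enzymes inactivate it. Pulses of the active hormone time each moult and start metamorphosis, so both synthesis and breakdown shape the pulse around the prepupal stage.

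The 4 peak lists used here were all on build dm6, and they hold peaks rather than reads, so sequencing depth is unknown. Each replicate list and the pooled list held 30000 entries, which include background. The thresholded list held the 7326 peaks that passed the authors' irreproducible discovery rate (IDR) procedure, a test of agreement between replicates. All 7326 are entries of the pooled list, and no other pooled entry was as strong as the weakest of them, which had a signal value of 139.4. The signal value is the authors' peak caller's own score for a peak, with no unit. It is used here only to describe and rank peaks within 1 list, with rank 1 the strongest.

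IDR-thresholded peaks were found at 2 of the 9 genes, shd with 5 and dib with 1. The 2 genes are 22.2% of the 9, against 40.1% of all protein-coding genes with such a peak in the same kind of window. The order turned round with a 10 kb limit, where 7 of the 9 genes (77.8%) had such a peak, against 56.1% of protein-coding genes. A promoter peak, with its summit within 500 bp of an annotated start, was found at shd alone. That is 1 of 9 (11.1%), against 13.2% of protein-coding genes. With 9 genes these shares were not tested, and the promoter share lies near that of all genes. Both shares count nvd and spok, where absent binding cannot be told apart from absent reads, as described below. Without these loci they were 2 of 7 (28.6%) and 1 of 7 (14.3%).

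**Figure D1:**
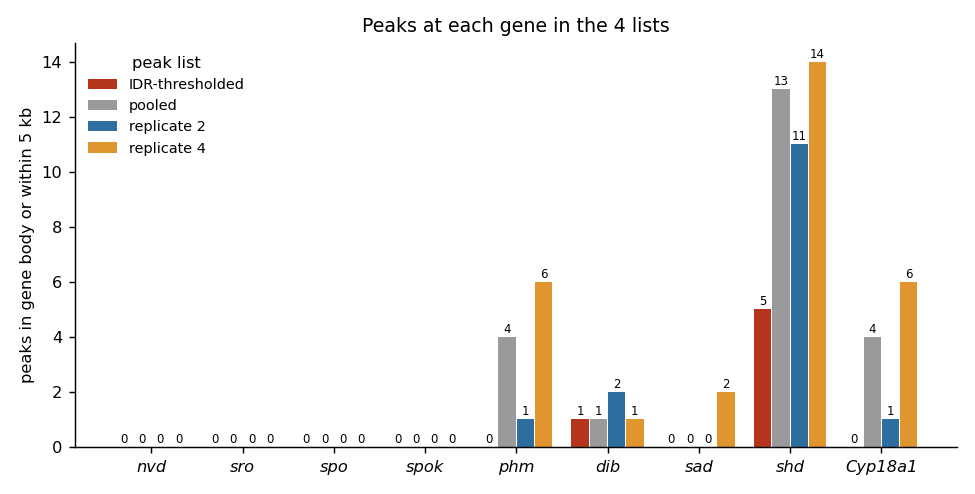
Number of peaks in the gene body or within 5 kb of each gene, by peak list (bars, IDR-thresholded, pooled, replicate 2 and replicate 4). shd has 5, 13, 11 and 14, nvd, sro, spo and spok have 0 in every list, and the windows of phm and Cyp18a1 overlap and share entries.

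The sequences under 4 of the 6 peaks are shown, those of the 3 peaks nearest to a start of shd and of the dib peak, because they are the most and the least rich in A and T of the 6. Each is the 201 bp centred on the summit from the thresholded list, read from the plus strand of the Release 6 reference from RefSeq, with capitals marking runs of 6 or more A or T bases. The first 3 lie at shd, 1367 bp upstream of its upstream start (chr3L:14612991-14613191), 433 bp upstream (chr3L:14613925-14614125) and 2398 bp downstream in an intron (chr3L:14616756-14616956). The last lies 6322 bp downstream of the dib start (chr3L:4068514-4068714).
shd upstream distal: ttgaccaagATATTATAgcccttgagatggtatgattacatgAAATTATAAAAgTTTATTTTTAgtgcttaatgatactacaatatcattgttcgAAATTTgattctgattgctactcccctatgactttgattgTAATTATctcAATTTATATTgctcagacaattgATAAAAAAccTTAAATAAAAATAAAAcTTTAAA
shd promoter: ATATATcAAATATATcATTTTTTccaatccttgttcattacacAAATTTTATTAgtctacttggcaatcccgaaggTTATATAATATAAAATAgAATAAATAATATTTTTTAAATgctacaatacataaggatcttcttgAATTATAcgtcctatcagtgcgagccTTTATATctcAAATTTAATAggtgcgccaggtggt
shd intron: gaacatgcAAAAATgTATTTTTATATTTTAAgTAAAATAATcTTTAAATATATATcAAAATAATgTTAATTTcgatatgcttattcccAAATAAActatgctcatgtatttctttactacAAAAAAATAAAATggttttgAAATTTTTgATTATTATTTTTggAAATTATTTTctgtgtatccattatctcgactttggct
dib downstream: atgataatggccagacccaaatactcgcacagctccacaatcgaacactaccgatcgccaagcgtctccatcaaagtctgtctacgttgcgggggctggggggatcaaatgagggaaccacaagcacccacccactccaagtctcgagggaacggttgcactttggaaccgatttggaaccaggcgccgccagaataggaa

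The 3 summit windows nearest to a start of shd were rich in A and T, and the dib summit window was not. The whole gene windows, with 5 kb on each side, differed in the same direction, with 38.1% G and C at shd and 46.4% at dib. A and T made up 74.6%, 71.6% and 79.1% of the 3 shd windows, against a median of 64.2% over all 7326 thresholded summits. The intron window was the most extreme of them, since 0.628% of all thresholded windows had as high a share. For the upstream distal and promoter windows those shares were 4.87% and 12.9%. The intron window held 109 bases in such runs and the other 2 shd windows 82 and 94, against a median of 45 over all thresholded windows. The dib window had 45.3% A and T and 0 bases in runs of that length, and 2.80% of all thresholded windows had as low an A and T share. The remaining 2 shd windows, nearer to the neighbouring gene CG9628, each had 58.2%.

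The 5 motifs searched were found in few of the 6 windows, a number too small to set against the shares over all thresholded windows. CAGTG, a core named in earlier results of these data, stood in 1 of the 6 windows on either strand, at bases 156 to 160 of the shd promoter window as printed, against 42.6% of all thresholded windows of the same length. The GAGA repeat GAGAGAG, the nuclear receptor half-site AAGGTCA, the DNA replication-related core ATCGATA and the E-box CACGTG were in 0 of the 6. All thresholded windows held them in 6.89%, 1.24%, 2.03% and 1.65%.

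shd encodes the P450 that hydroxylates ecdysone to the active hormone in peripheral tissues, and it was the member with by far the most peaks. The gene lies on chromosome 3L from 14614458 to 14622205, plus strand, with 2 annotated starts. Its 5 thresholded peaks were matched by 4.55% of protein-coding genes with 5 or more in the same kind of window. Per length it had 0.282 peaks per kb of its 17.7 kb window, and 97.0% of protein-coding genes had no more than that. The lists with background, of which the pooled one contains the thresholded peaks, had 13 entries (pooled), 11 (replicate 2) and 14 (replicate 4). As many were found at 4.77%, 7.10% and 4.29% of protein-coding genes in those lists, where 58.7%, 63.9% and 60.2% had at least 1. The density of pooled entries on chromosome 3L would put 4.32 in a window of that length. In every list part of the shd count lay at CG9628, the gene that follows shd, so these counts are not of shd alone.

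**Figure D2:**
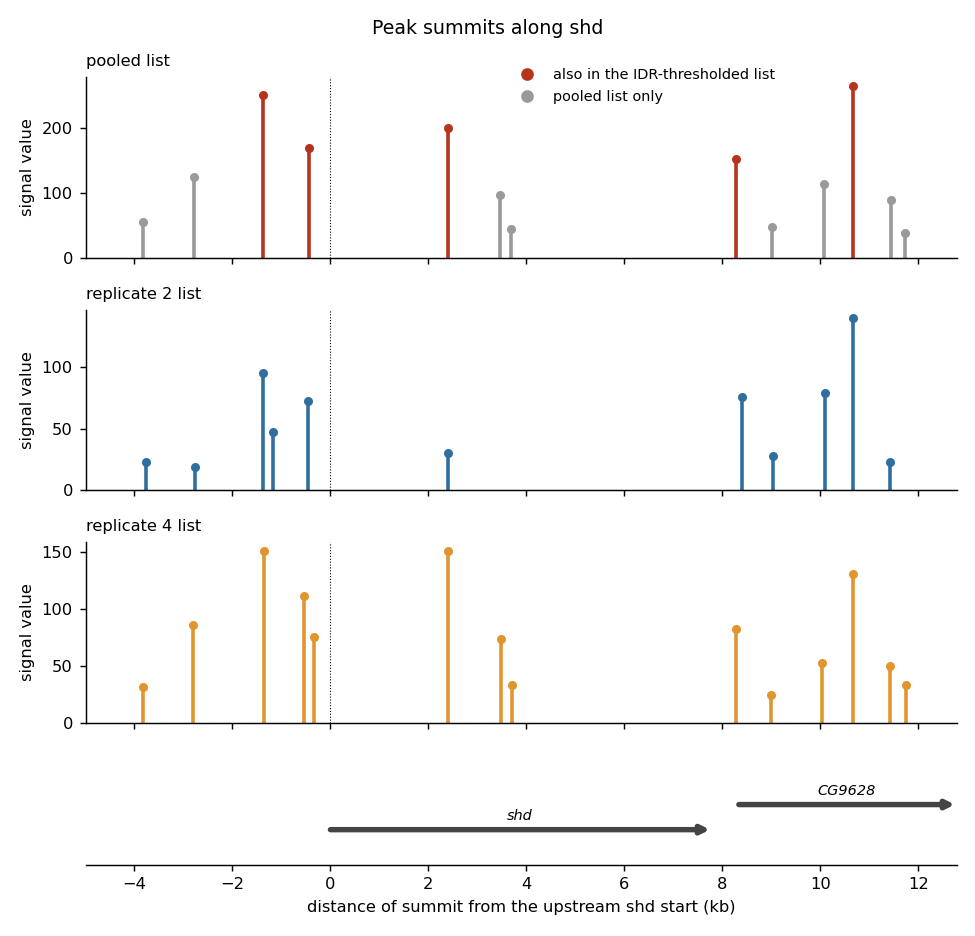
Signal value of each peak (vertical lines with dots) against the distance of its summit from the upstream shd start in kb, for the pooled, replicate 2 and replicate 4 lists, with gene models as arrows below. Red dots mark the 5 thresholded peaks, 2 upstream of shd, 1 inside it and 2 at CG9628, the gene that follows it.

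The 5 peaks at shd fell into 3 that were nearest to a start of shd and 2 that were nearest to the start of CG9628. CG9628 begins 591 bp beyond the end of shd on the same strand. By the rules used here the last 2 are a CG9628 promoter peak and a CG9628 intron peak. Which gene they serve was not tested. The stronger of the upstream peaks had its summit 1367 bp before the upstream shd start, in intergenic sequence, with a signal value of 249.9 and rank 3691. It had a signal value of 94.9 in replicate 2 (rank 5680) and 151 in replicate 4 (rank 2940). The promoter peak, 433 bp before that start, had a signal value of 169 and rank 5955. Its matches had 72.3 in replicate 2 (rank 7750) and 74.8 in replicate 4 (rank 7097). All 3 lists therefore placed the promoter entry below the distal one.

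The call of a promoter peak at shd depended on a short distance. Replicate 4 had 2 overlapping entries there, with summits 540 and 340 bp upstream and signal values of 112 and 74.8, and the stronger of them lay outside the 500 bp limit. The summit in replicate 2 lay 449 bp upstream. No list had a summit within 250 bp of a shd start.

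The peak in the shd intron was the one on which the replicates differed most. Its summit lay 2398 bp downstream of the upstream start, with a signal value of 199 and rank 4916. Replicate 4 ranked it 2921 with a signal value of 151, and replicate 2 ranked it 19050 with 30.4, although both summits lay within 1 bp of the pooled one. The ranks differed 6.52-fold, and 1.67% of the 5516 thresholded peaks matched in both replicate lists differed by as much. The median rank ratio over those peaks was 1.45.

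The 2 peaks at CG9628 were similar in rank in both replicates. The peak 59 bp upstream of the CG9628 start was the weakest thresholded peak at any of the 9 genes, with a signal value of 151 and rank 6707. It ranked 7413 in replicate 2 and 6366 in replicate 4, with signal values of 75.4 and 82.4. Its matched summits lay apart, 60 bp downstream of the CG9628 start in replicate 2 and 58 bp upstream in replicate 4. The peak in a CG9628 intron, 2338 bp downstream of that start, was the strongest in the shd window, with a signal value of 264 and rank 3433. Replicates 2 and 4 ranked it 3538 and 3560, with 139.6 and 131. The strongest pooled entry of the window that missed the threshold lay 2777 bp upstream of shd, with a signal value of 124 and rank 8345.

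**Figure D3:**
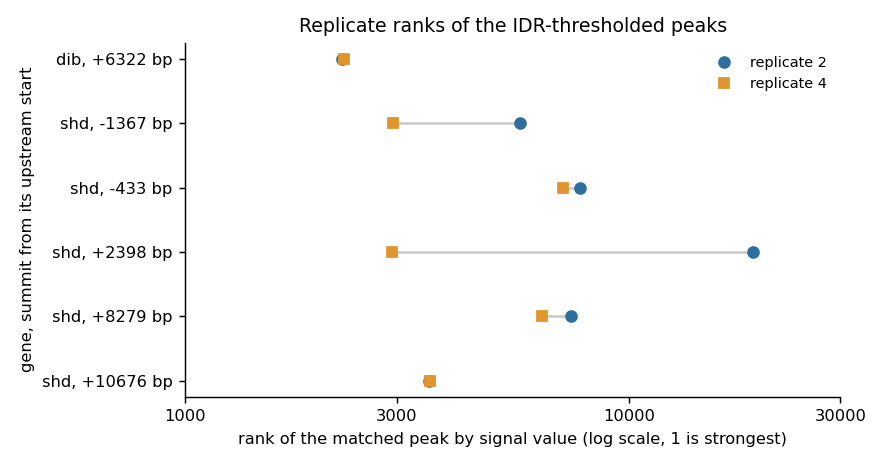
Rank by signal value, on a log axis, of the replicate 2 (circles) and replicate 4 (squares) peaks matched to each of the 6 thresholded peaks, labelled by gene and by the distance of the summit from the upstream start. The pairs lie close together for dib at 6322 bp and for shd at 10676 bp, and farthest apart for the shd intron peak, at 19050 and 2921.

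dib encodes a mitochondrial P450 that adds one of the late hydroxyl groups of ecdysone, and its single thresholded peak lay outside the gene. The gene is on chromosome 3L from 4062292 to 4064551, plus strand. The peak (chr3L:4068498-4068752) had its summit 4063 bp beyond the end of dib, in an intron of wit, which encodes a type II BMP receptor and overlaps the dib end on the opposite strand. The nearest start, 755 bp away, was that of CG32259. The peak had a signal value of 369 and rank 2185, the highest rank of the 6, and ranked 2261 in replicate 2 and 2285 in replicate 4 with signal values of 195 and 180.1. No list had an entry in the dib gene body or at its start.

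The 5 kb limit left stronger peaks just outside at dib and elsewhere. In wit, 6069 bp beyond dib, a thresholded peak had a signal value of 1297 and rank 236, and a second summit in the same interval had 266. The wit promoter peak, 7169 bp beyond dib, had 285. Between 5 and 10 kb from the other genes, the strongest were the Etfb promoter peak 7146 bp beyond sro (signal value 1003) and the mthl5 promoter peak 7617 bp beyond sad (697). The spo, phm and Cyp18a1 windows gained intergenic peaks only, with signal values from 147 to 193, and phm and Cyp18a1 shared 1 of them.

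phm and Cyp18a1 act at opposite ends of the hormone's life and lie next to each other. phm encodes a microsomal P450 of the synthesis chain (chromosome X, 18685766 to 18688433, plus strand), and Cyp18a1 encodes a P450 that inactivates the hormone (chromosome X, 18688538 to 18693042, minus strand). Their ends face each other 105 bp apart, so their windows overlap. Neither had a thresholded peak, and both had weak entries in the lists with background. The pooled list had 4 entries in each window and 5 in both together, with signal values from 40.2 to 55.3. The best of them ranked 18931.

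Both promoters were among those weak entries. The pooled summit 118 bp upstream of phm had a signal value of 55.3, with an entry 139 bp downstream in replicate 4 (45.0, rank 12749) and none within 500 bp in replicate 2. At Cyp18a1 the pooled summit lay 13 bp downstream of a start with a signal value of 44.2 (rank 23420). Replicate 2 had an entry there with 19.9 (rank 27899) and replicate 4 had 2, with 26.9 and 24.9. Promoter entries of this kind were found at 24.6% of protein-coding genes in the pooled list, 28.7% in replicate 2 and 25.1% in replicate 4. Replicate 4 had 6 entries in each window, against 1 in replicate 2. As many were found at 18.1% and 63.9% of protein-coding genes in those lists. For the 4 pooled entries in each window that share was 29.7%. The density of pooled entries on chromosome X would put 2.85 in the phm window and 3.27 in that of Cyp18a1.

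**Figure D4:**
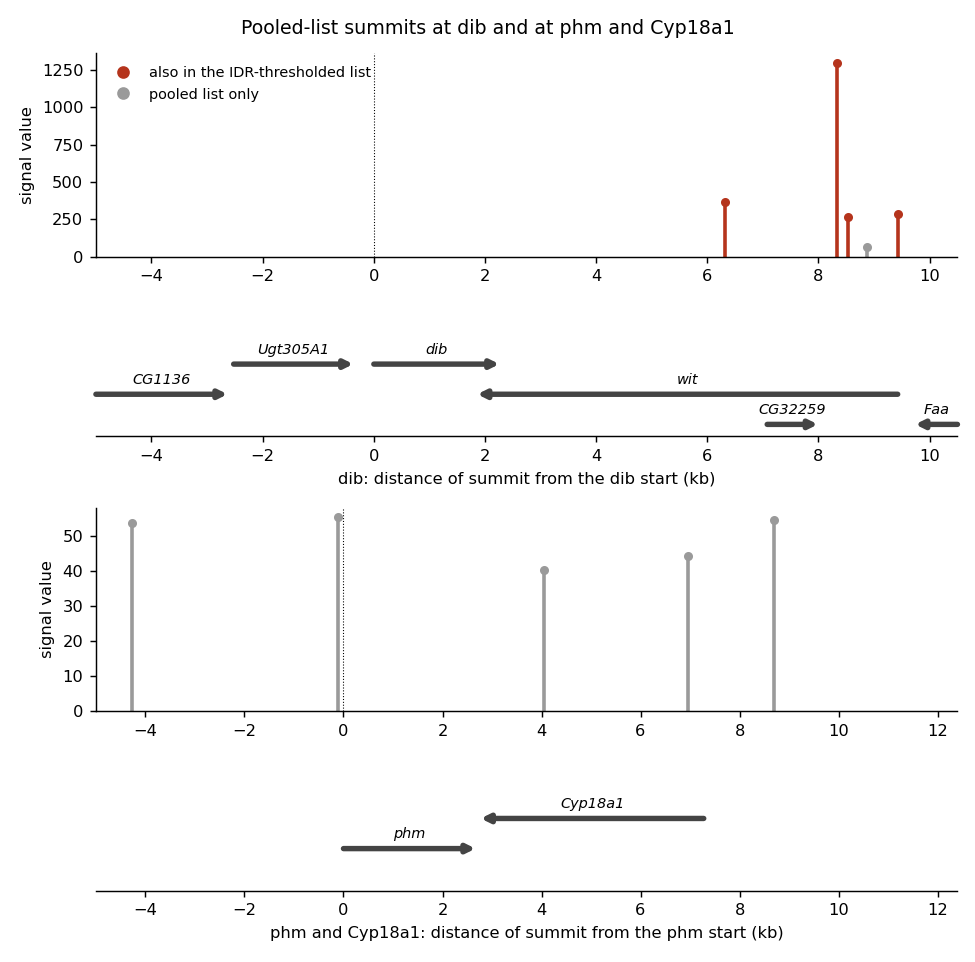
Signal value of each pooled entry against the distance of its summit in kb from the dib start (upper) and from the phm start (lower), with gene models as arrows. The dib body and start are empty and the thresholded peaks (red) lie in wit, while phm and Cyp18a1 have only entries below the threshold (grey), from 40.2 to 55.3 inside their windows.

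The synthesis genes sad, sro and spo had next to no entries. sad encodes the mitochondrial P450 of the last step to ecdysone (chromosome 3R, 11877235 to 11879754, plus strand) and had 2 overlapping entries in replicate 4, about 4 kb upstream, with signal values of 28.6 and 24.0 and ranks 21122 and 25171. It had 0 in each of the other 3 lists. sro encodes a short-chain dehydrogenase (chromosome 3R, 29794597 to 29795805, plus strand) and had 0 entries in all 4 lists. So did spo, a P450 of the early steps (chromosome 3L, 5590083 to 5592571, minus strand). The pooled density of their chromosomes would put 2.49 and 3.04 entries in the sro and spo windows. At least 1 entry was found at 58.7% of protein-coding genes in the pooled list, 63.9% in replicate 2 and 60.2% in replicate 4. Windows without any entry were therefore common among all genes.

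sro lies among genes with peaks of their own. It begins 484 bp beyond the end of kay, which encodes the Fos protein and had 8 thresholded peaks in its own window. The nearest thresholded peak to the sro start, 7974 bp upstream, was in a kay intron with a signal value of 236. No entry of any list fell within 5 kb of sro.

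nvd and spok stood apart from the other 7 genes, since the surrounding chromosome had almost no entries either. nvd encodes the Rieske-type oxygenase of the first step (chromosome 3L, 24324866 to 24401655, plus strand), and spok a P450 close to spo (chromosome 3R, 3322810 to 3354486, plus strand). Both had 0 entries in all 4 lists, where the chromosome's pooled density would put 21.1 and 9.25 in their windows. The pooled list had 2 entries within 500 kb of each gene, against 262 and 229 at that density. The nearest lay 135.5 kb from nvd and 396 kb from spok. They were among 99 protein-coding genes (0.710%) with no pooled entry within 100 kb.

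The 2 windows were also rich in repeats. Soft-masked bases, which mark repeats in the reference, made up 41.5% of the nvd window and 50.3% of the spok window, against a median of 12.2% over protein-coding genes. As high a share was found at 0.789% and 0.265% of protein-coding genes, and the other 7 members had 5.11% to 17.8%. The sources used here do not say how reads from repeats were placed, so an absence of binding at nvd and spok cannot be told apart from an absence of placed reads.

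Distance to the nearest thresholded summit, which does not use the 5 kb limit, was shortest for shd and longest for nvd and spok. The median was 7.97 kb over the 9 genes, against 9.38 kb over all protein-coding genes. shd had a summit 433 bp from a start, and 12.6% of protein-coding genes had one as near. dib, phm, sad and sro followed at 6.32, 6.73, 7.27 and 7.97 kb, and spo and Cyp18a1 were at 12.1 and 13.7 kb. These 6 lay between the 39.8% and 62.1% points of all protein-coding genes, so they were close to a typical gene by this measure. spok and nvd were at 808 and 986 kb.

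**Figure D5:**
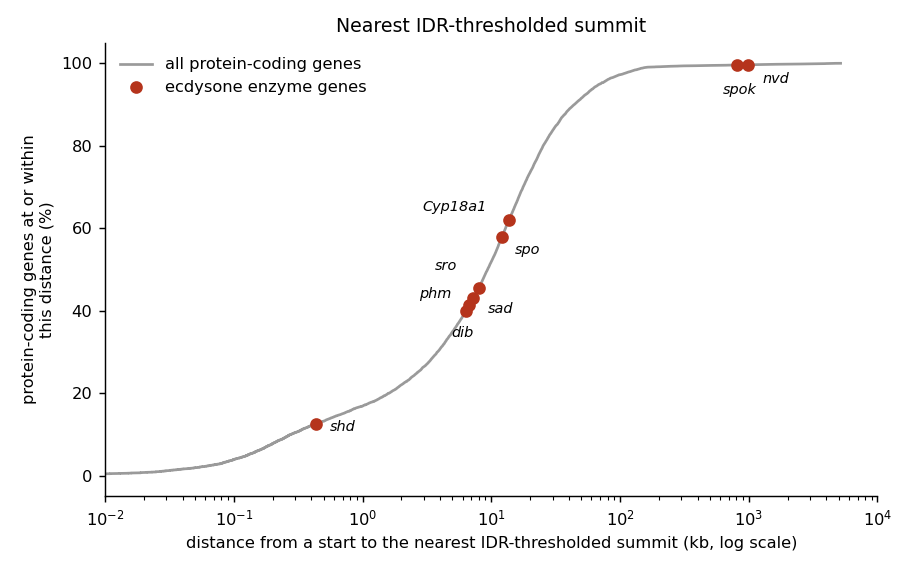
Percent of protein-coding genes (vertical axis) whose nearest thresholded summit lies at or within a distance in kb of a start (horizontal axis, log scale), for all 13945 genes (grey line) and with the 9 enzyme genes marked in red. shd lies at 12.6%, 6 genes between 39.8% and 62.1%, and spok and nvd above 99%.

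With the 5 kb limit, the enzyme genes had peaks at a smaller share of members than other genes that serve the pathway. The differences between these short lists were not tested. Within 10 kb 7 of the 9 enzyme genes had a thresholded peak, and counts at that limit are not given for the other lists. Of 15 genes for transcriptional regulators of the synthesis genes 11 had a thresholded peak in their window and 7 a promoter peak, led by the nuclear receptor gene Eip75B (signal value 1124), woc (671), tai (311) and dre4 (307). The regulators br, ecd, Hr51 and kni had no promoter peak, though br had 4 thresholded peaks in its window. ouib and mld, which encode zinc-finger proteins known to regulate spok or nvd, had 0 and 5 thresholded peaks in their windows and no promoter peak. The windows of the enzyme genes had a median length of 12.7 kb, against 23.6 kb for the regulators and 12.2 kb for all protein-coding genes. Of the lists that follow, it was 17.8 kb for signals to the prothoracic gland and 13.1 kb for sterol supply, redox partners and transport. For the further ecdysteroid-modifying enzymes it was 12.0 kb.

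Genes for sterol supply, redox partners and hormone transport had thresholded peaks at 5 of 9 and promoter peaks at 3 of 9. Those 3 were Cpr, which encodes the reductase that feeds electrons to microsomal P450s (signal value 272), Atet, a gene for an ecdysone transporter (234), and EcI, the gene for the ecdysone importer, named Oatp74D in the annotation (194). The mitochondrial redox partner genes dare and Fdx2, the glutathione transferase gene GstE14 and the sterol transport gene Npc1a had no promoter peak. Of these, dare and GstE14 each had 1 thresholded peak in the window. Genes for signals to the prothoracic gland had 6 of 10 and 3 of 10, with promoter peaks at babo (202), Egfr (195) and InR (175) and none at Dsor1, Ptth, Raf or Ras85D. Of the latter, Raf and Dsor1 had 16 and 2 thresholded peaks in their windows. Of 3 further ecdysteroid-modifying enzyme genes spidey had a promoter peak (512), and Cyp6t3 and Eo had none. A thresholded peak in the window was found at 2 of the 3, spidey with 1 and Eo with 2.

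In these counts the enzyme genes lay nearer to the P450 family, to which 7 of them belong, than to those lists. The 2 of 9 enzyme genes with a thresholded peak in the window compare with 23 of 82 other P450 genes (28.0%), and the 1 of 9 with a promoter peak with 9 of 82 (11.0%). All protein-coding genes had 40.1% and 13.2%, so the promoter share lay near that of all genes too. The signal value of 169 at the shd promoter was below those of the strongest promoter peaks of other P450 genes, at Cyp6u1 (signal value 608), Cyp6v1 (395), Cyp6a16 (358), Cyp4e3 (225) and Cyp6a2 (212). The median distance to the nearest thresholded summit was 7.97 kb for the enzyme genes, 14.4 kb for the other P450 genes and 9.38 kb for all protein-coding genes. By this measure the enzyme genes were nearer to all genes than to the P450 family.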

How the data were processed

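ChIP-seq peak lists of 2 replicates of a single group were used, with the pooled and IDR-thresholded lists made from both. Per the deposited documentation, each replicate list came from that library's alignment and 1 further undescribed file. The authors deposited for each peak a signal value, which is a score of their peak caller, and a −log10 q-value that is capped and was not used here. The sources used here name no aligner, peak caller, IDR threshold or depth. Lists deposited on dm3 were not used, and no coordinate was converted. All peak ends of the 4 lists lay within the Release 6 reference chromosomes.

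Summits, widths and ranks were computed with Python 3.11.15 and pandas 2.3.3, with 1-based positions and Ensembl release 115 gene models (BDGP6.54), pseudogenes left out. Distances are signed along the gene's strand where upstream or downstream is given. Matches between lists needed an overlap of 50% of each peak's length, taking the nearest summit. The counting was tested on simulated data. Counts and medians are descriptions with no test. Named genes were the 9 members, the gene of the start nearest to a peak, and up to 4 genes with and 4 without a promoter peak of each list (the 5 strongest for P450s); mld, ouib and the genes of the peaks between 5 and 10 kb were named after their values were seen. Members, lists and motifs were chosen with earlier results of these data known, and 1 listed symbol, sean, had no match. Alternatives were other windows, promoter distances, peak sets, match rules and each replicate alone.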

Additional observations from a re-analysis of the deposited data

How the results depend on the processing

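The count of 2 genes with a thresholded peak was 1 (shd) with the gene body alone, within 1 kb or within 2 kb, 7 within 10 kb and 4 with all pooled entries. For all protein-coding genes those shares were 14.0%, 22.8%, 27.9%, 56.1% and 58.7%, so the 9 genes lay above the share of all genes within 10 kb (77.8%) and below it in the other 4. The 6 peaks in the windows became 1, 3, 4, 17 and 19. With the stronger 50% of thresholded peaks the dib and shd windows kept 2 peaks, and 29.1% of protein-coding genes had one. Those 2 were the peaks in introns of wit and CG9628, and the 3 peaks nearest to a shd start were lost. The promoter count of 1 was 0 at 250 bp (9.21% of protein-coding genes), 0 with the stronger 50% (8.06%) and 3 with all pooled entries (24.6%), and 16.9% of protein-coding genes had a promoter peak at 1000 bp.

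With the strongest 7326 peaks of a single replicate, dib and shd were the genes with a peak in both cases. The promoter count was 0 to 1, the peak count 4 to 9, the protein-coding shares 39.8% to 43.6% and 12.9% to 15.5%, and the median distance 7940 to 7948 bp. The shd promoter peak was lost without replicate 4. The median distance of 7974 bp was 12279 bp with the stronger 50% and 7269 bp with all pooled entries. All 6 peaks had a match in both replicates, as did 5516 of all 7326 thresholded peaks. Of the 6, 5 did with summits within 100 bp and 2 at 80% of both lengths. Shares over all thresholded peaks are not given for those rules. The cause of these differences was not tested beyond the fewer or more peaks each setting takes. No paired analysis was possible because there is a single group. Depth is unknown, so weak binding below the lists' floors cannot be seen.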
